A study of Mus musculus with 19 samples.

Results

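SOX3 occupancy was described here at 9 genes that write, maintain or remove DNA methylation, out of 26180 genes with a curated RefSeq start site. The 9 genes were taken as a named list by function (Dnmt1, Uhrf1, Dnmt3a, Dnmt3b, Dnmt3l, Tet1, Tet2, Tet3 and Tdg), and the rule sets no threshold on a measured value. SOX3 is an SRY-box transcription factor of undifferentiated spermatogonia (uSPG), the testis cells that include the spermatogonial stem cells. The study performed SOX3 ChIP-seq on whole mouse testis at postnatal day 7 (P7), and its peaks were deposited as 1 list per replicate for 2 replicates. The samples of this group carried no treatment and no mutant allele in their labels. The labels name a pair of SOX3 antibodies, from SCBT and EMD Millipore, and the methods describe seminiferous tubules pooled from several mice, on a C57BL/6J background, for each factor experiment. A testis at this age holds spermatogonia beside Sertoli and other somatic cells, so the cells that carried a given peak cannot be told apart from the lists alone. The study describes SOX3 as specific to uSPG within the testis, shows its staining in uSPG, and assigns the SOX3 peaks to these cells. The lists measure no RNA, so the labelled tissue could not be checked against marker genes.

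DNA methylation in mammals sits mainly on cytosines of CpG dinucleotides. DNMT3A and DNMT3B place new methyl groups, DNMT3L is an inactive relative that stimulates them in germ cells, and DNMT1 copies the pattern onto the new strand after replication with the help of UHRF1, which recognises hemimethylated sites. TET1, TET2 and TET3 oxidise methylcytosine, and TDG excises the oxidised bases so that base excision repair can restore an unmodified cytosine. In the male germ line the genome is demethylated in fetal primordial germ cells and remethylated in prospermatogonia around birth, so that at P7 the spermatogonia already carry a largely methylated genome in which CpG-rich promoters are mostly spared.

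Several of these genes start at more than one place, and at Dnmt1, Dnmt3a, Dnmt3l and Tet3 the choice of start can change the protein that is made. Curated start sites of the same gene were joined where they lay within 500 bp of each other, which gave 15 start regions, numbered here from the most upstream one. The sequences below run from 250 bases before the start site through the first 50 bases of the transcript (300 bases) on the coding strand of GRCm38 (mm10), with CpG dinucleotides in capitals. They were chosen because the results turn on them. The Dnmt1 pair has 1 start with and 1 without a SOX3 peak in both replicates, both Dnmt3a starts were occupied, Dnmt3l start 2 had no peak, Tdg had strong ones, and the Tet1 start lies under an intronic peak. All but the last are curated RefSeq starts, and all but the last are also held in the RefSeq promoter table of that build. Dnmt1 start 1 (chr9:20959839-20960138, minus strand) gives the shorter protein of 1501 residues known from oocytes, and Dnmt1 start 2 (chr9:20952930-20953229, minus strand) is the somatic start, which gives proteins of up to 1627 residues. Dnmt3a start 1 (chr12:3806730-3807029, plus strand) encodes the full protein of 908 residues, and Dnmt3a start 2 (chr12:3891494-3891793, plus strand) lies inside the gene and encodes the form of 689 residues called DNMT3A2, the form typical of germ cells. Dnmt3l start 2 (chr10:78049592-78049891, plus strand) encodes the protein of 421 residues, and Tdg has a single start (chr10:82629588-82629887, plus strand). The last sequence is an internal Tet1 start of a transcript in GENCODE M21 (chr10:62865255-62865554, minus strand).
Dnmt1 start 1: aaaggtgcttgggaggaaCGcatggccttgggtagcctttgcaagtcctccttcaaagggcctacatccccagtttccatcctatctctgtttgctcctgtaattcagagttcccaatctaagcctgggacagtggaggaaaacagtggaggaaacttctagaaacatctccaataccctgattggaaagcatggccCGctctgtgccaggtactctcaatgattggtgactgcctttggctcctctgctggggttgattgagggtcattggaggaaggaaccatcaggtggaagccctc
Dnmt1 start 2: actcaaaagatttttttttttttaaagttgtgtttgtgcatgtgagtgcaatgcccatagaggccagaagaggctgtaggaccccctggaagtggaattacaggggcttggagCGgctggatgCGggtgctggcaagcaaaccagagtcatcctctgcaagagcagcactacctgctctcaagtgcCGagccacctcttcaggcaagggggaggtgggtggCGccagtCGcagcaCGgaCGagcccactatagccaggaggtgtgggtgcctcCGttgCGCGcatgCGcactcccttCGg
Dnmt3a start 1: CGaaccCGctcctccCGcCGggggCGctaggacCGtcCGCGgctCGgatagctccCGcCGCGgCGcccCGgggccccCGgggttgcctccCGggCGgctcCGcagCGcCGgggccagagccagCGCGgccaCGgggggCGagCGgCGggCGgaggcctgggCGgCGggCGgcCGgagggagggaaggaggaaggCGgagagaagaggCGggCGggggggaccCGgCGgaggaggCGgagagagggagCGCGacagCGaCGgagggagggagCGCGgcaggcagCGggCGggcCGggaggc
Dnmt3a start 2: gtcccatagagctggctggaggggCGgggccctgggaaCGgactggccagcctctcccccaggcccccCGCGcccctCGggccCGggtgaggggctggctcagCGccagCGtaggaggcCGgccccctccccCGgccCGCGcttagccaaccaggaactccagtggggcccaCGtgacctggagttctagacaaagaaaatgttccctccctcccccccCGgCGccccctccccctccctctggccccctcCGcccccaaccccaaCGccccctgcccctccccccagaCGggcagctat
Dnmt3l start 2: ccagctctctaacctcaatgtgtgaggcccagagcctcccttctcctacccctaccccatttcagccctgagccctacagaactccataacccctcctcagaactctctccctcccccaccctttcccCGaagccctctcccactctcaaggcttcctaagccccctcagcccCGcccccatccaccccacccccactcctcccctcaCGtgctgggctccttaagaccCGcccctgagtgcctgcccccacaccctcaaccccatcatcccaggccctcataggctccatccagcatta
Tdg start 1: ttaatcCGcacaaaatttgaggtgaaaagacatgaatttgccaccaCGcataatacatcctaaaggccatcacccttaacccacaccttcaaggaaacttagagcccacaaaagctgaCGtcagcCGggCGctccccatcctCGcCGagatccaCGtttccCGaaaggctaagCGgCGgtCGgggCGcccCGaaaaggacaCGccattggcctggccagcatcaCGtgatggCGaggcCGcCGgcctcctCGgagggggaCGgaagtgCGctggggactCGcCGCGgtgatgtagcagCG
Tet1 internal start: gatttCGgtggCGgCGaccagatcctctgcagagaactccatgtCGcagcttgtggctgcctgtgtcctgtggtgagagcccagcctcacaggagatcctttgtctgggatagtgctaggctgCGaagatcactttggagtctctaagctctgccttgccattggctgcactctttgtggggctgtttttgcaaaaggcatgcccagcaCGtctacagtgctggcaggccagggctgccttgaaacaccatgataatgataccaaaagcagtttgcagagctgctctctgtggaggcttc
The windows differed widely in CpG number. Dnmt3a start 1 held 46 CpGs, Tdg 26, Dnmt3a start 2 held 18 and Dnmt1 start 2 held 12. The internal Tet1 start held 6, Dnmt3l start 2 held 4 and Dnmt1 start 1 held 2. The median over the 29494 start regions of all genes was 10.

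All 9 genes had at least 1 SOX3 peak within 2 kb of a start site in each replicate, and at 8 of the 9 genes the peaks of the replicates overlapped. Overlap here means that 1 peak covered at least 50% of the other. The exception was Dnmt3l, the germ cell cofactor. These counts have to be read against a very broad background, because 62.7% of all genes had a promoter peak in replicate 1, 54.7% in replicate 2 and 52.2% in both, and 50% had overlapping peaks. With 1 group and 2 replicates no test was made, and the values below are descriptions. The score used is the q score of the authors' peak caller (10 times the negative log10 of the adjusted p-value, with a minimum of 30 in the lists), which was ranked only within a replicate. Each gene's strongest promoter peak was therefore also ranked as a percentile among the strongest promoter peaks of all genes that had one in that replicate (16417 and 14310 genes).

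**Figure D1:**
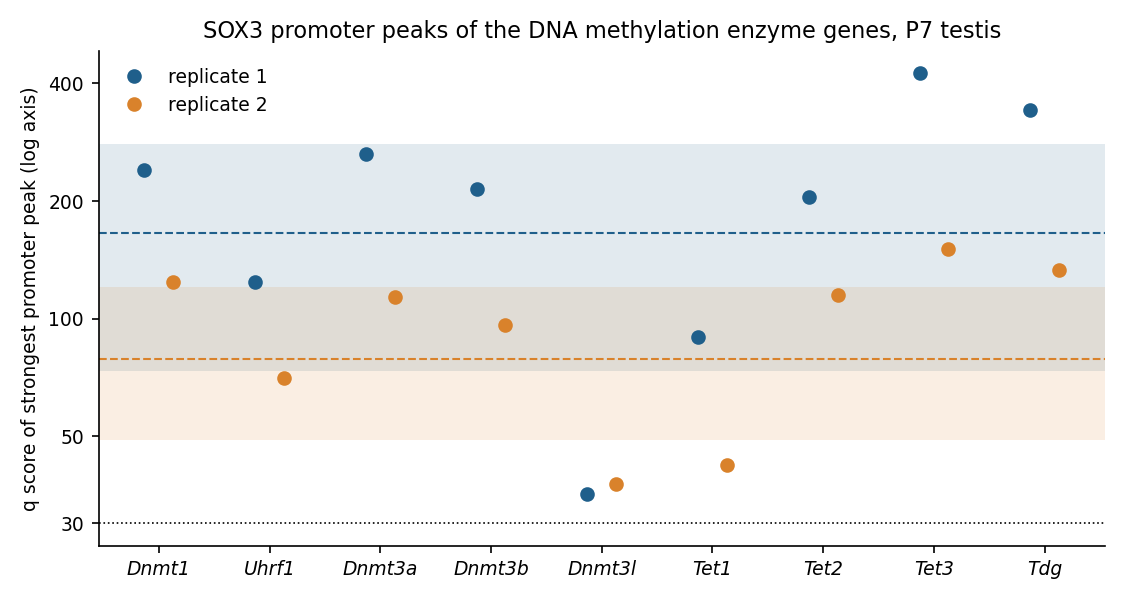
q score (log axis) of the strongest SOX3 peak within 2 kb of a start site for each gene, with replicate 1 in blue and replicate 2 in orange. Shaded bands span the lower to upper quartile over all genes with a promoter peak in that replicate, dashed lines mark their medians (165 and 78.8), and the dotted line marks the list minimum of 30. In each replicate Tet3 and Tdg lie above the band of that replicate and Dnmt3l lies below it.

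Maintenance of methylation was represented by Dnmt1 and Uhrf1. The peak at the somatic start of Dnmt1 had a q score of 241 in replicate 1 and 124 in replicate 2, with log2 ratios of ChIP over input of 3.90 and 3.59. It ran from 590 bp upstream to 1151 bp downstream of the start in replicate 1 and from 711 bp upstream to 645 bp downstream in replicate 2. Both replicates thus covered the somatic start printed above. At the upstream start of Dnmt1, the oocyte-type one with 2 CpGs in the printed window, replicate 1 had a weak peak of 503 bp with a q score of 31.4. That score and its log2 ratio of 2.85 were shared by 3746 peaks of the list. Replicate 2 had no peak within 2 kb of that start, and its nearest peak inside the gene began 2432 bp away, with a q score of 40.8. Uhrf1 has 2 starts, 56303337 and 56304313 on chromosome 17, whose transcripts encode proteins of the same lengths (774 to 782 residues). In replicate 1 a single peak of 2900 bp with a q score of 124 covered both. In replicate 2 the same stretch held a pair of separate peaks, one of 652 bp ending 160 bp before the first start (q score 58.5) and one of 960 bp over the second start (q score 70.7). Both lay wholly within the replicate 1 peak. Uhrf1 was below the median of bound genes in both replicates, at percentiles 39.7 and 43.7, whereas Dnmt1 was above it at 67.7 and 76.9.

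The de novo writers Dnmt3a and Dnmt3b had overlapping peaks above the median of bound genes in both replicates, and their cofactor Dnmt3l did not. Dnmt3a start 1 lay under the longest overlapping stretch of the 9 genes. The peak measured 3470 bp with a q score of 264 in replicate 1 and 2930 bp with a q score of 113 in replicate 2, and the replicate 2 peak lay entirely inside the other. Replicate 1 had a further peak with a q score of 62.5 that ended 1726 bp before this start, which replicate 2 did not have. The germ cell start of Dnmt3a, start 2, was also occupied in both replicates, scoring 80.3 and 51.3 (q score), at log2 ratios of 3.55 and 2.38. The replicate 1 peak ran from 708 bp upstream to 1092 bp downstream, whereas the replicate 2 peak lay upstream and ended 2 bp past the start. In both replicates the score at start 2 was lower than at start 1. Dnmt3b, with a single start region, scored 215 and 96.5 (q score), at log2 ratios of 3.31 and 3.05, with the replicate 2 peak inside the replicate 1 peak.

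Dnmt3l had the weakest promoter peaks of the 9 genes, and no position was shared. Its strongest promoter peaks had q scores of 35.7 in replicate 1 and 37.7 in replicate 2, percentiles 5.29 and 11.7. In replicate 1, peaks lay 1302 bp from start 1, over start 3 and 833 bp from start 3, with q scores of 35.7, 35.7 and 32.8. In replicate 2 the single peak lay 1591 bp from start 3. No base was covered in both replicates. Start 2, 1 of the 2 starts of the 421-residue protein, had no peak within 2 kb in either replicate, and no peak lay elsewhere in the gene body. Start 3 is an internal start that gives a product of 126 residues, and start 1 lies within the neighbouring gene Aire, whose own start is 1323 bp from it. The replicate 1 peak near start 1 also lay within 2 kb of the Aire start, and replicate 2 had none there. The next gene downstream, Icosl, which encodes an immune costimulatory ligand and begins 5746 bp beyond Dnmt3l, did have overlapping promoter peaks, with q scores of 87.5 and 63.8.

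**Figure D2:**
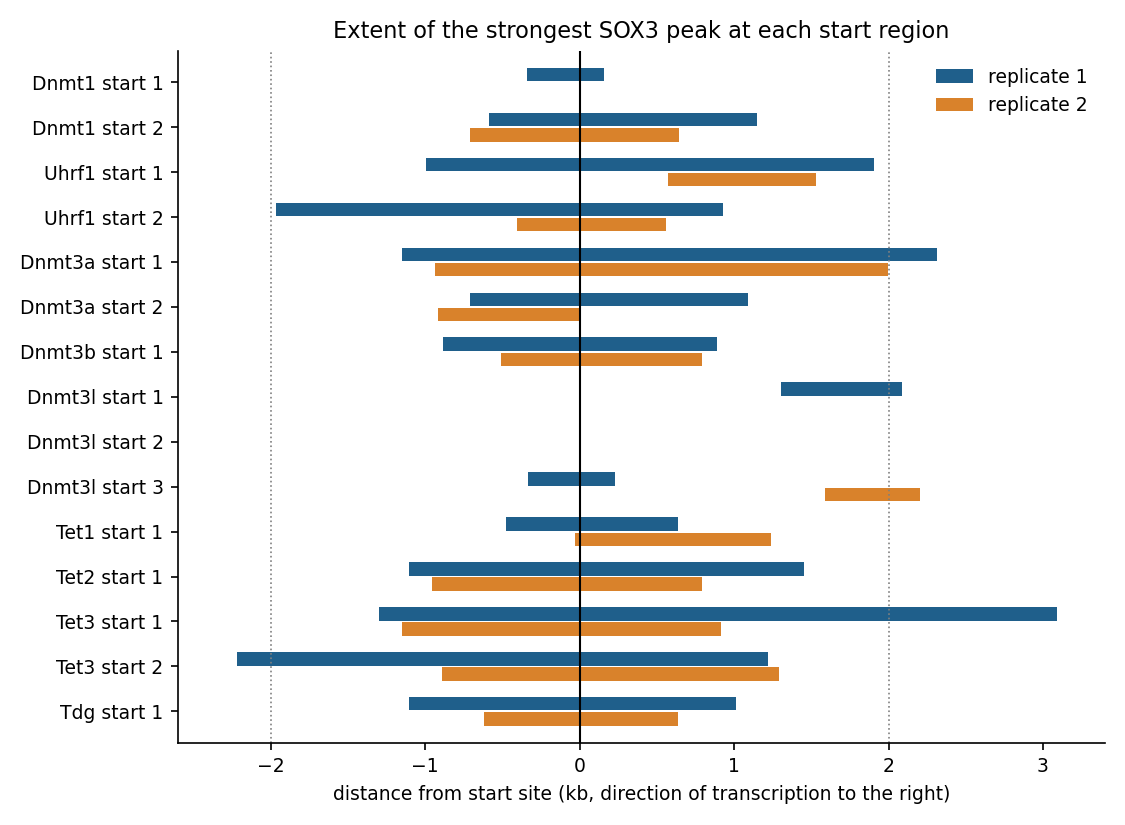
Extent of the strongest SOX3 peak at each of the 15 start regions, as distance from the start site in kb with transcription running to the right, replicate 1 in blue and replicate 2 in orange. Dotted lines mark 2 kb. In 10 regions the peaks of both replicates covered the start site, Dnmt3l start 2 had none, and the peaks near Dnmt3l start 3 did not meet.

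Among the genes that remove methylation, Tet3 and Tdg had the highest promoter scores of the whole list in both replicates. Tet3 start 1 encodes the long protein of 1803 residues, which carries the CXXC domain. Its peak scored 425 and 150 (q score), at log2 ratios of 4.70 and 4.0, percentiles 91.3 and 85.9. It spanned 4393 bp in replicate 1, reaching 3091 bp into the gene, and 2065 bp in replicate 2. Tet3 start 2, which lies inside the gene and encodes the short protein of 1668 residues, had a peak of its own in both replicates, with q scores of 224 and 90.9. This second start lies 77 bp from that of B230319C09Rik, a gene on the opposite strand, so the peak was at a start shared between both genes and cannot be assigned to one of them. Replicate 2 had an additional weak peak 1682 bp from it (q score 37.0). Tdg, the glycosylase, scored 343 and 134 (q score), at log2 ratios of 4.79 and 3.37, percentiles 84.4 and 80.3. Its replicate 2 peak of 1262 bp lay within the replicate 1 peak of 2115 bp. Tet2 had q scores of 205 and 115, percentiles 59.8 and 72.3, again with the replicate 2 peak inside the other.

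Tet1 was the weakest of the Tet genes at its promoter. Its q scores were 89.6 and 42.3 and its log2 ratios 2.68 and 2.15, percentiles 30 and 17.3. The peaks shared 670 bp across the start. Inside the gene, however, Tet1 had an intronic peak of comparable size in both replicates, at chr10:62865027-62866128 in replicate 1 and chr10:62864826-62866039 in replicate 2. Its q scores were 80.2 and 74.5, so that in replicate 2 it exceeded the score at the promoter. The midpoint of this peak lay 21.8 kb and 21.9 kb downstream of the curated start, in an intron of the RefSeq model. The internal GENCODE start printed above, at position 62865304, lay under the peak in both replicates, and it was the only GENCODE start over 2 kb from the curated starts of these 9 genes to do so.

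The order of the genes by percentile was the same at both ends in the 2 replicates. Tet3 ranked first and Tdg second in each, and Uhrf1, Tet1 and Dnmt3l took ranks 7, 8 and 9 in each. The percentile ranges of these 5 genes did not overlap one another or those of the other genes. In the middle, Dnmt1 (67.7 to 76.9), Dnmt3a (71.9 to 72.3) and Tet2 (59.8 to 72.3) overlapped, as did Tet2 and Dnmt3b (61.7 to 62.5), so those neighbours did not differ beyond the spread between replicates. The median percentile of the 9 genes was 62.5 in replicate 1 and 71.9 in replicate 2, and 6 of the 9 lay above the median bound gene in each replicate. The median log2 ratio of the 9 genes was 3.52 against 3.67 over all bound genes in replicate 1, and 3.20 against 2.72 in replicate 2, so the side on which they fell depended on the replicate for that measure. The q score was higher in replicate 1 at 8 of the 9 genes, with a median ratio of 2.11 between replicates, and at 95.9% of all genes bound in both, with a median ratio of 2.29. Dnmt3l was the gene without this difference (0.946), but its ratio compares peaks at different positions, both with scores near the list minimum.

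CpG content, which the selection did not use, was compared at the same starts. The ratio of observed to expected CpGs was computed in 500 bp either side of each start site, and a start region was called CpG-rich with a ratio of at least 0.6 and a GC content of at least 55%. By that rule 7 of the 15 start regions were CpG-rich, against 35.4% of all start regions, and all 7 had overlapping SOX3 peaks in both replicates. Across the genome 89.7% of CpG-rich start regions had a peak in both replicates, so this count was close to the background. Regions with a ratio of 0.4 to 0.6 were Dnmt1 start 2 (0.59, just short of the limit), Uhrf1 start 1 (0.55), Tet3 start 2 (0.55) and Dnmt3a start 2 (0.50). All 4 had a peak in both replicates, against 52.6% of start regions in that range. The peaks of Uhrf1 start 1 also counted for the CpG-rich Uhrf1 start 2, so the Uhrf1 regions are not separate sites in these counts. Regions with a ratio under 0.4 were the other Dnmt1 start (0.059) and the 3 Dnmt3l starts (0.19, 0.29 and 0.18). Of these 4, 1 had a peak in both replicates, at positions that did not meet, against 13.8% of start regions in that range. Counted over all 15 regions, 12 had a peak in both replicates, against 50.4% of all start regions. The 4 start regions without overlapping peaks were thus the 4 with the lowest CpG ratios. Within the CpG-rich class, the median percentile of the 7 regions was 47.4 in replicate 1 and 63.3 in replicate 2, on either side of the middle of that class.

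**Figure D3:**
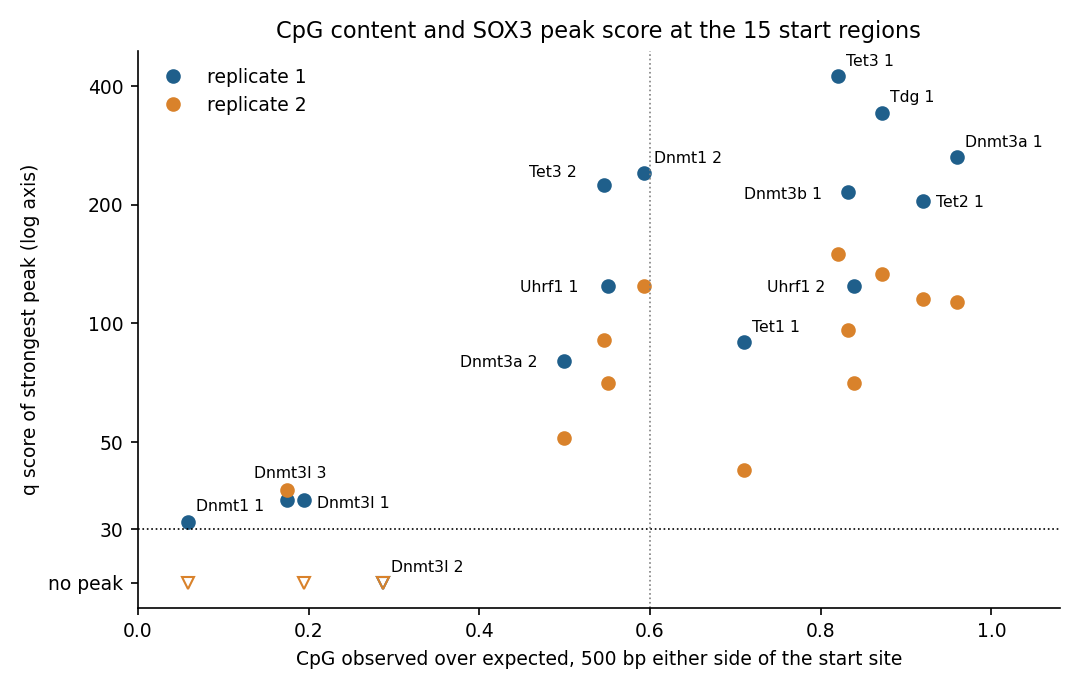
q score of the strongest SOX3 peak (log axis) against the observed over expected CpG ratio at the 15 start regions, labelled by gene and start number, replicate 1 in blue and replicate 2 in orange, with open triangles for no peak. The vertical dotted line marks the ratio of 0.6 and the horizontal one the list minimum of 30. All regions with a ratio under 0.4 lie at scores of 37.7 or below.

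Short sequence motifs were counted in the 300-base windows of the 15 starts and of all 29494 start regions, on both strands. The SOX core AACAAT occurred in none of the 15 windows, against 9.68% of all windows and 3.91% of CpG-rich ones. In the promoter peaks themselves it was present in 5 of 15 peaks of replicate 1 (33.3%, against 34.3% of the promoter peaks of all genes) and in 2 of 13 peaks of replicate 2 (15.4%, against 25.7%). Its frequency was 1.75 and 1.09 per 10 kb of these peaks, against 2.76 and 2.39 per 10 kb over the promoter peaks of all genes. The GC box GGGCGG occurred in 11 of the 15 windows, against 42.1% of all windows and 77.7% of CpG-rich ones. The CCAAT box occurred in 5 of the 15 (37.6% of all), among them Dnmt1 start 1 and Tdg. The cyclic AMP response element TGACGTCA occurred once, in the Tdg window printed above (2.20% of all), and an E2F element of the forms TTTCCCGC, TTTCGCGC, TTTGCCGC or TTTGGCGC occurred once, in Uhrf1 start 2 (2.60% of all). The ETS site CCGGAAGT was found in none (4.39% of all). A match to letters is a description of the window only.

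Beyond the promoters, the 9 gene bodies, 518 kb in all, held 51 peaks in replicate 1 and 21 in replicate 2. Pooled over the 9 genes, that is 9.84 and 4.05 per 100 kb, against 2.29 and 1.35 over all genes. The median per gene over the 8233 genes of the same length range (20.1 to 107.5 kb) was 1.27 and 0. In that range 48% and 57.9% of genes had no gene-body peak, and the upper quartile was 5.19 and 3.36. For the 5296 of them with promoter peaks in both replicates the median was 2.45 and 0. Medians per gene and pooled densities are unlike measures. Most gene-body peaks of the 9 genes were weak, with median q scores of 34.1 and 34.8, and 5 and 2 of them had a q score above 60. In replicate 1, 6 of the 51 (11.8%) were found in replicate 2, and in replicate 2, 7 of the 21 (33.3%) were found in replicate 1. Over all genes 10.8% and 27.8% of gene-body peaks were found in the other replicate, so the gene-body peaks of these 9 genes recurred at about the general rate. Of the promoter peaks of the 9 genes, 7 of 15 in replicate 1 and 12 of 13 in replicate 2 were found in the other replicate, against 59% and 85.4% of the promoter peaks of all genes. The gene-body peaks had few CpGs, with a median observed over expected ratio of 0.19 in replicate 1 and 0.18 in replicate 2, and most midpoints were intronic, with 5 of 51 and 0 of 21 in an exon.

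Gene-body peaks that recurred were found in Dnmt1, Dnmt3a, Tet1 and Tet3, 4 of the 9 genes, against 17.8% of the 8233 genes of that length range. Dnmt3a held the most, 19 in replicate 1 and 9 in replicate 2, a density of 17.7 and 8.37 per 100 kb, which placed it at percentiles 96.1 and 93.2 among genes of that length range. At 2 sites in Dnmt3a introns, each replicate's peak covered at least 50% of the other's. The stronger one, chr12:3870652-3872311 in replicate 1 (q score 91.2) and chr12:3871272-3872541 in replicate 2 (q score 60.2), had its midpoint 20.3 kb and 19.8 kb before the germ cell start. In both replicates its score was above that of the peak at the germ cell start itself. The other, chr12:3831199-3831916 in replicate 1 (q score 38.9) and chr12:3831095-3831797 in replicate 2 (q score 43.8), lay in the first part of the gene. Dnmt1 held 8 and 4 gene-body peaks (percentiles 94.3 and 91.5) and shared 1 of them, at q scores of 41.2 and 36.7. Tet3 held 13 and 5 (percentiles 92.6 and 86.5). Its gene-body peaks that met a peak of the other replicate had q scores between 31.1 and 47.5, and its strongest one, with a q score of 82.2, was present in replicate 1 alone. Tet1 held 4 and 2 (percentiles 73.4 and 68.5), of which the intronic peak described above recurred. Dnmt3b held 4 and 1 (percentiles 88.2 and 70), Uhrf1 2 and 0 (87.3 and 0) and Tet2 1 and 0 (49.8 and 0), with none shared. A percentile of 0 stands for no gene-body peak, which in replicate 2 was the case for 57.9% of genes of that range. Tdg and Dnmt3l had no gene-body peak in either replicate, like the 48% and 57.9% of genes given above.

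**Figure D4:**
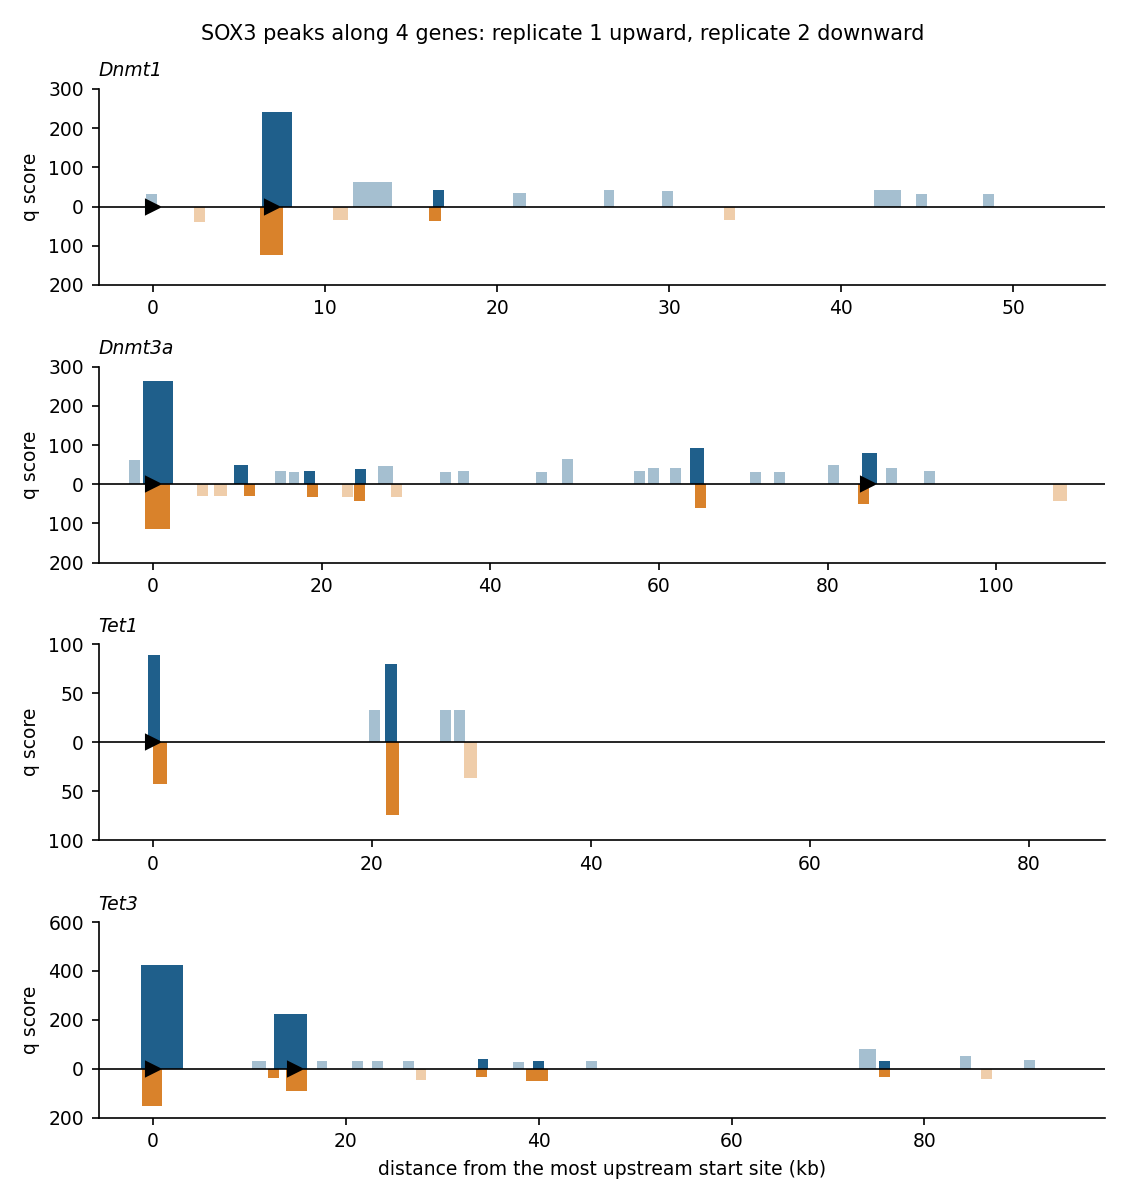
SOX3 peaks along Dnmt1, Dnmt3a, Tet1 and Tet3, with distance from the most upstream start site in kb on the horizontal axis and q score as bar height, replicate 1 upward and replicate 2 downward. Arrowheads mark start regions, dark bars overlap a peak of the other replicate by at least 1 bp, pale bars do not, and narrow peaks are drawn with a minimum width. The Tet1 intronic peak stands at 80.2 and 74.5, near the promoter peak in replicate 1 (89.6) and above it in replicate 2 (42.3).

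To place the enzymes among the genes they work with, 39 other genes of the pathway with a curated start were examined in 6 roles. Of these, 35 (89.7%) had a promoter peak in both replicates, against 52.2% of all genes, and in all 35 the peaks overlapped. All but 11 of the 39 had a CpG-rich start region, and 89.7% of all CpG-rich start regions had a peak in both replicates. Every gene with a CpG-rich start region had a peak in both replicates, and so did 7 of the 11 without one. The share for CpG-rich start regions is thus not a background for the 39 genes as a whole. The median percentile of the other pathway genes was 69.0 in replicate 1 and 70.3 in replicate 2, beside 62.5 and 71.9 for the 9 enzymes and cofactors. The group of methyl-CpG-binding domain and related reader genes had peaks in both replicates at 6 of 6 genes, led by Mbd3, a NuRD subunit that, unlike MBD2, does not selectively bind methylated CpGs (q scores 848 and 314). Of the maintenance partners 5 of 6 did, led by Uhrf2, the relative of Uhrf1 (q scores 470 and 236). The partners of the de novo enzymes did at 3 of 3 genes, led by Nsd1, a histone H3 lysine methyltransferase (q scores 493 and 185). The TET partners and suppliers of 2-oxoglutarate did at 5 of 5, led by Cxxc5, which encodes a zinc finger protein that binds TET2 (q scores 498 and 168). The glycosylases, deaminases and repair enzymes did at 11 of 13, led by Gadd45g, a stress-response gene with a proposed role in repair-coupled demethylation (q scores 664 and 156). The methyl donor enzymes did at 5 of 6, led by Mat2a, which makes S-adenosylmethionine in most tissues (q scores 883 and 399, percentiles 99.5 and 99.5).

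The 4 of these genes without a promoter peak in both replicates were Dppa3, Smug1, Apobec1 and Mat1a. Dppa3, which shields the oocyte and germ cell genome and restrains UHRF1, had a peak only in replicate 1 (q score 44.8), and so did Smug1, a uracil DNA glycosylase (q score 70.9). Apobec1, a cytidine deaminase that edits RNA in gut and liver, and Mat1a, the liver form of the methionine adenosyltransferase, had none in either replicate. None of the 4 had a CpG-rich start region, but neither did 7 of the 35 genes with a peak in both replicates, Nsd1 and Gadd45g among them. Their highest observed over expected CpG ratios were 0.44, 0.49, 0.45 and 0.28, in that order.

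**Figure D5:**
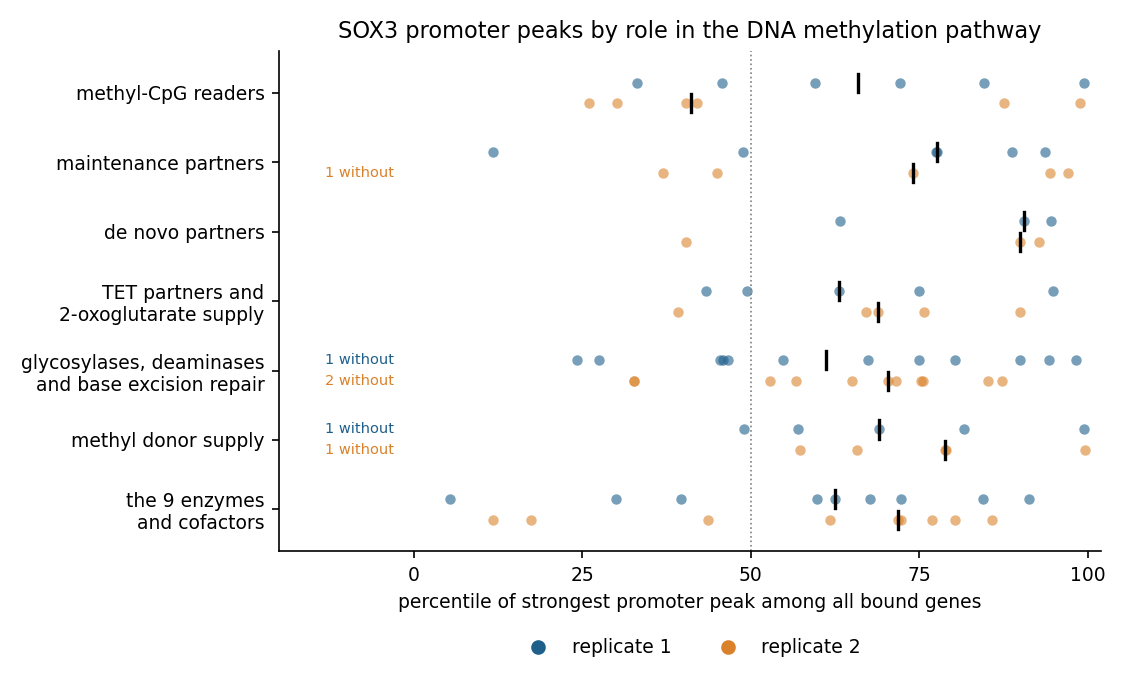
Percentile of each gene's strongest promoter peak among all bound genes, for 6 roles of the pathway and for the 9 enzymes and cofactors, replicate 1 in blue and replicate 2 in orange, with black bars at the medians and the number of genes without a peak at the left. The medians of the 9 genes, 62.5 and 71.9, lie within the span of the roles' medians, which run from 61.1 to 90.5 in replicate 1 and from 41.2 to 90.0 in replicate 2.

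SOX3 ChIP-nexus, a form of ChIP that digests the precipitated fragments back to the edge of the bound protein, gave 110 and 18 peaks on mouse chromosomes in its 2 replicates. None lay in the promoter or body of the 9 genes, and the nearest was 697 kb away, on the chromosome of Dnmt3a. The study states far fewer unique reads for the SOX3 ChIP-nexus libraries than for its SOX3 ChIP-seq libraries. Lists of that length leave most genes without a peak, so an unbound gene and a missed call cannot be told apart in them.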

How the data were processed

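SOX3 occupancy was measured by ChIP-seq in P7 mouse testis (2 replicates) and by ChIP-nexus (2 replicates), and the 15 other labelled samples were not analysed here. According to the methods, reads were aligned to mm10 with Novoalign, reads with several matches were placed at random, duplicates were removed with Picard, and ChIP-seq peaks were called with USeq in each replicate. The ChIP-seq lists as deposited are without column names, so the q score (10 times the negative log10 of the adjusted p-value) and the log2 ratio (ChIP over input) were identified from the caller's layout and the values. Both the score and the log2 ratio are the authors' values. The deposited ChIP-nexus lists (MACS2 2.1.1) give a score, fold enrichment, −log10 p and −log10 q by the authors, of which positions alone were used. No list holds read counts, so depth is unknown from them. The study states more reads for replicate 2 than for replicate 1 of SOX3 ChIP-seq. The methods describe removal of blacklisted mouse regions from peaks, after merging of replicates, and whether that step was applied to these separate lists is not stated.

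Start sites, gene spans and sequence were GRCm38.p6 RefSeq (45756 curated transcripts, chromosomes 1 to 19, X and Y). A promoter peak overlapped the 2 kb either side of a start site, and the nearest start was the one used. Gene-body peaks overlapped the gene and none of its promoters. A peak counted as found where 1 peak of the other replicate covered at least 50% of it. Promoter peaks overlapped where either was covered in this way. A percentile is the share of bound genes with a lower score. For gene-body density it is the share of genes of the length range with a lower density. With 1 group of 2 replicates no test was made. Python 3.11.15, pandas 2.3.3 and samtools 1.23.1 were used, and the overlap code was tested on simulated data and checked against bedtools 2.31.1.

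The rule for named genes took the 9 enzymes and cofactors, pathway genes without a promoter peak in both replicates, the gene of highest mean percentile in each role, and genes sharing a start region peak with the 9. Icosl was named after its values were seen. The genes, the pathway list and the rules were chosen with earlier results of these data known. Dnmt3c of that list has no curated start site and was not tested, and 2 other genes of it are not reported here. Alternatives covered the score minimum, window, overlap rule, annotation, start regions, ranking measure and leaving out each replicate.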

Additional observations from a re-analysis of the deposited data

How the results depend on the processing

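Of 37 alternatives, 34 left the value close to the main one and 3 moved it further. Close means within 1.5 times for a count, within 1 SD of the replicates for the percentile and within 1 SD of the start regions for the CpG ratio. With a q score above 60, the gene-body peaks of the 9 genes fell from 51 to 5 in replicate 1 and from 21 to 2 in replicate 2, since most had scores near the list minimum. Ranked by peak width in place of the q score, the mean over replicates of the median percentile of the 9 genes was 59.2, against 67.2 by q score, and the cause was not tested. With either replicate left out, that percentile was 62.5 to 71.9, all 9 genes kept a promoter peak, and 35 to 37 of the other pathway genes had one. These alternatives are among the 34 but could not have counted as moved, so they are no check. Leaving out a replicate, or widening the window to 5 kb, cannot lower a count of genes with a peak in both. With 2 replicates, leaving 1 out cannot take the percentile more than 1 SD from their mean. Under the higher score minimum 7 of the 9 genes had a promoter peak in both replicates (all but Dnmt3l and Tet1), against 35.2% of all genes, and within 1 kb 8 did. Requiring 50% of both peaks left 7 genes with overlapping peaks in place of 8. No paired analysis was possible because the results come from no test. The lists do not give depth, and with 2 replicates a peak seen in 1 of them cannot be told apart from a missed call in the other.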
